A study of Danio rerio with 4 samples.

Results

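Chromosome 3 of the zebrafish was described along its length as a series of intervals of chromatin accessibility. It held 2578 of the 54036 intervals in the count table, taken by the rule that the interval lies on chromosome 3. Of these, 126 started in the first 4 Mb of the chromosome and 2452 started further along. The chromosome and the 4-Mb limit were chosen from earlier results of the same counts, that is, from the difference between the groups that is described here. The first 4 Mb is therefore set against the rest of the chromosome as a description, with no test of that difference. The rule also named density as a measure to compare, whereas it did not name interval width or the spread between replicates. Read density is a mean over the 4 libraries, which a loss in one group lowers.

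Bulk ATAC-seq counted reads from noncardiomyocytes (nonCMs) of adult zebrafish hearts, with 2 libraries titled WT and 2 titled Treatment, all at 7 days. Per the labels, the cells came from the injury area, both groups are wild type, and amputation is given for Treatment only. The study's text instead describes nonCMs of tnfα mutant and wild-type hearts at 7 days post amputation (dpa). WT and Treatment are used below as in the titles, and the labels do not settle if genotype, injury or both separate the groups. The sources used here do not state whether the 2 libraries of a group came from separate animals or from pools, so p-values measure only the spread between these libraries. The label of nonCMs could not be checked against marker genes, because gene positions on the genome build of the files were not used here.

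In ATAC-seq, the Tn5 transposase inserts adapters where DNA is not covered by nucleosomes, and the reads pile up at open promoters and enhancers. Such sites are typically narrow and dense in reads, whereas closed chromatin between them gives a thin, even background. NonCMs of the heart include endocardial and endothelial cells, epicardial cells and fibroblasts, macrophages and blood cells, and these cells change state around the wound during zebrafish heart regeneration. A bulk count sums over all of them, so fewer cells with an open region and lower accessibility per cell cannot be told apart. The values below are reads per interval, and what makes them differ between the groups was not tested.

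Zebrafish chromosome 3 is known for its globin cluster, whose products carry oxygen in erythrocytes, and for the hoxb genes, which pattern the body axis. In the RefSeq table of assembly GRCz12tu, 11 of 16 listed globin genes lay on it, among them hbaa1 and hbba1 of adult erythrocytes, as did all 11 listed hoxb genes. The table also placed on it junbb, which encodes a subunit of the transcription factor AP-1, and col1a1a, which encodes a chain of type I collagen. That assembly differs from the GRCz11 build of the files, so these genes were not placed on intervals, and the intervals below carry no gene annotation.

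Over all chromosomes the counts summed to between 14736856 and 16822284 per library. A tested interval had a median count of 87.5 reads per library in the first 4 Mb and 128 in the rest of chromosome 3, which gives counting errors of 10.7% and 8.84%. Reads amplified by PCR are not independent molecules, so counting errors and confidence intervals cover counting error only. The common biological coefficient of variation was 9.56%.

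The shares of reads on chromosome 3 overlapped between the groups, while its first 4 Mb held large differences in both directions. Chromosome 3 took 3.89% (95% Wilson interval 3.88 to 3.90) of the counts in the first WT library and 3.93% (3.92 to 3.94) in the second. In Treatment it took 3.90% (3.89 to 3.91) of the first library and 3.90% (3.90 to 3.91) of the second. Both Treatment values lay between the WT values, and the means were 3.91% ± 0.03 and 3.90% ± 0.003 (SD, n = 2 each, exact two-sided permutation p = 1). The first 4 Mb took 0.108% and 0.115% of the counts in WT and 0.109% and 0.104% in Treatment, again with overlapping groups (exact two-sided permutation p = 0.667). With 2 libraries against 2, the smallest p this test allows is 0.33.

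Per interval, 2442 of the 2578 members had enough reads to be tested with edgeR's quasi-likelihood test, and an interval was called at a Benjamini-Hochberg adjusted p under 0.05 over all 50494 tested intervals. On chromosome 3, 23 intervals were called lower in Treatment, beside 0.721% of all tested intervals, and 32 were called higher, beside 0.438%. The 55 calls made up 2.25% of its tested intervals, where 1.16% were called over all chromosomes. The first 4 Mb held 28 of these calls among 114 tested intervals (24.6%), 9 lower and 19 higher. The rest held 27 calls among 2328 tested intervals (1.16%), 14 lower and 13 higher. Calls in the rest depended on single libraries, and a fit without 1 library leaves 1 in its group. They rose without WT replicate 1 and fell without any other library, most of all without Treatment replicate 2. Calls over all intervals of the table rose and fell in the same way, so this was not particular to chromosome 3. The count in the first 4 Mb ran from 23 to 28 over the 4 libraries left out in turn.

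The share of lower calls on the chromosome depended on the scaling. It was 41.8% with factors from all intervals, and 28.8% of 66 calls with factors from intervals of at most 1 kb, a scaling that moved the median change over all intervals to 0.11. In the first 4 Mb that scaling gave 30 calls, 70.0% of them higher, beside 67.9% of 28 calls. With a filter that required a mean of 50 reads per library, 15 calls were left in the first 4 Mb and 27 in the rest. The DESeq2 Wald test gave 22 and 9 calls.

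The differences in the first 4 Mb went in both directions, and their median lay near 0. The median log2 fold change of its tested intervals was 0.04, beside -0.01 in the rest of the chromosome and -0.002 over all intervals. The median size of the log2 fold change, regardless of sign, was 0.34, beside 0.16 in the rest and 0.16 over all intervals. A change of at least 1 on the log2 scale was found at 31 of 114 tested intervals (27.2%), and at 33 of 2328 in the rest (1.42%). A change of at least 2 was found at 20 tested intervals of the first 4 Mb and at 1 in the rest. The segment was chosen from these differences, so these counts are no evidence beyond the reads themselves. They also include intervals that passed the filter on low counts through 1 group alone, which favours a large change. In the first 4 Mb, 21 of the 114 tested intervals did not pass in both groups, beside 43 of 2328 in the rest. The groups did not overlap at 65 tested intervals of the first 4 Mb (57%), beside 41.2% of all tested intervals and 42.9% in the rest.

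**Figure D1:**
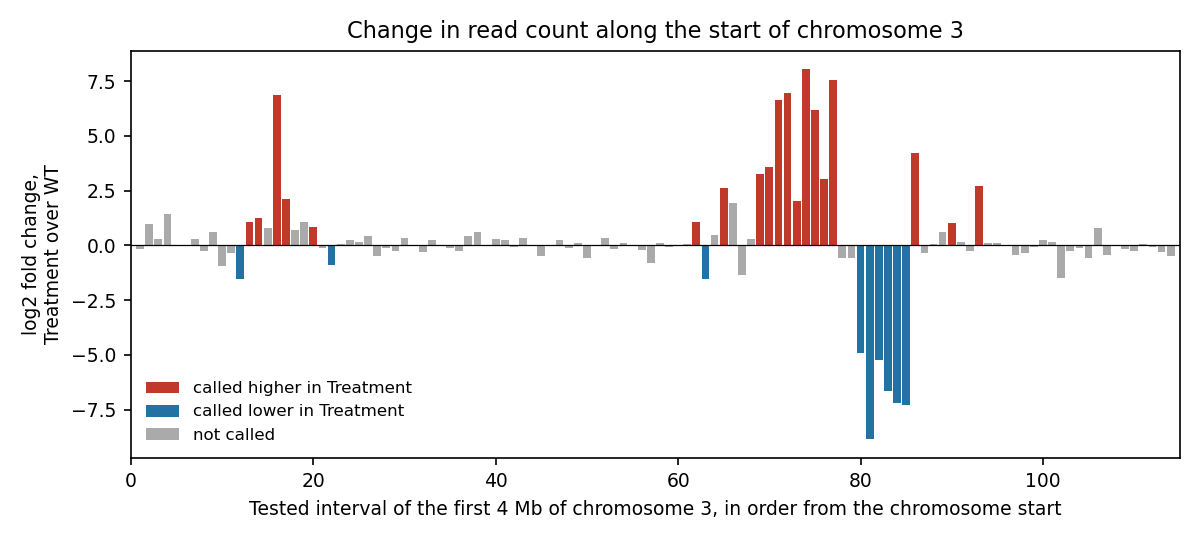
Log2 fold change (vertical axis, Treatment over WT) of the 114 tested intervals in the first 4 Mb of chromosome 3, in order from the chromosome start (horizontal axis), with 1 bar per interval. The 19 intervals called higher are red, the 9 called lower are blue and the others are grey, and bars of one colour stand next to each other in a run of 9 higher and a run of 6 lower intervals.

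In the first 4 Mb, the median replicate differences lay below the median change of 0.34 between groups. The segment was chosen from its differences between groups, so this order is a description and no evidence. In the rest they lay near the 0.16 between groups. Between the 2 WT libraries, the median absolute log2 difference was 0.22 in the first 4 Mb and 0.18 in the rest of the chromosome. Between the 2 Treatment libraries it was 0.25 and 0.17. Replicates differed by at least 1 on the log2 scale at 4 tested intervals of the first 4 Mb in WT and at 5 in Treatment, against the 31 that differed by this much between groups. In the rest these counts were 35 and 34, against 33 between groups. The 2 measures are unlike. Replicate differences compare single libraries in log2 CPM with a prior count of 2, which shrinks them at low counts, whereas the change between groups is fitted from 2 libraries each. The intervals that were not called had a median size of change of 0.26 in the first 4 Mb and 0.16 in the rest.

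**Figure D2:**
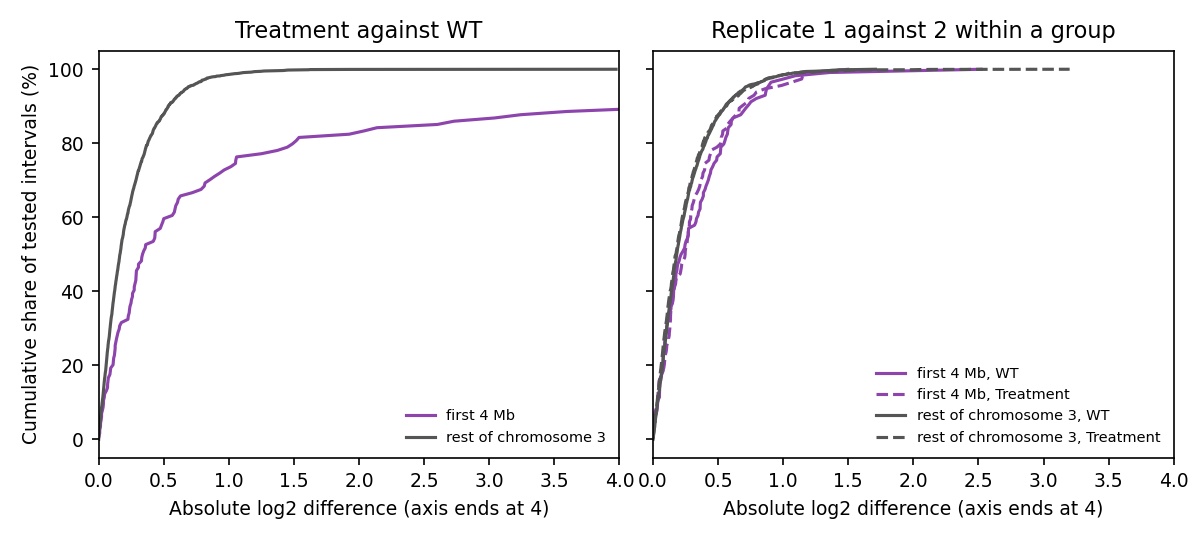
Cumulative share of tested intervals (vertical axis, %) against the absolute log2 difference (horizontal axis, drawn up to 4), between Treatment and WT on the left and between the replicates of each group on the right, for the first 4 Mb and the rest of chromosome 3. On the left, 27.2% of the intervals of the first 4 Mb reached a difference of 1, beside 1.42% in the rest. The segment was chosen from these differences, and intervals that passed the filter through 1 group alone are included. On the right the 4 curves run close together.

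The first 4 Mb was also sparser and was cut into wider intervals than the rest of the chromosome as a whole. These measures take all 4 libraries together and do not compare the groups, although a nearly empty group lowers the density of an interval. Its median density was 10.7 reads per kb per library, beside 24.7 in the rest, and its median width was 7280 bp, beside 3371 bp. Narrow intervals of at most 1 kb made up 19.0% of its members, beside 39.4%, and wide intervals of over 5 kb made up 57.9%, beside 45.6%. It held 31.5 intervals per Mb and 41.9 lay in each Mb of the rest. Its intervals covered 2.04 Mb, and 20 of the 126 (15.9%) began directly where the one before ended, beside 46.1% in the rest. Low density and wide intervals were not particular to this segment. Over the bins of 1 Mb from 4 to 12 Mb, the median of the bin densities was 10.8 reads per kb. The first 4 Mb of chromosome 7 had a median density of 8.14 reads per kb and a median width of 8058 bp, with 61.1% wide intervals. Intervals share libraries and neighbours, so no test is given for these values.

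Calls in the first 4 Mb fell in every density class, but the class of an interval is set by its mean over the 4 libraries, which a loss in one group lowers. Counts are therefore given only for intervals that passed the filter on low counts in both groups, since passing through 1 group alone favours a difference. Among those of at most 5 reads per kb, 4 of 14 were called in the first 4 Mb, 3 of 53 in the rest of the chromosome, and 75 of 841 on other chromosomes. Above 5 and up to 20 reads per kb, 7 of 46 were called in the first 4 Mb, 7 of 868 in the rest and 83 of 16688 elsewhere. Above 20 reads per kb, 2 of 33 were called, beside 16 of 1364 and 293 of 29133. Over all tested intervals of the first 4 Mb, those called had a median density of 5.08 reads per kb and those not called 15.6. The order was the same in the first 4 Mb of chromosome 7, with 4.38 and 10.4, and on chromosome 4, with 3.73 and 22.3, whereas the rest of chromosome 3 had 34 at called intervals and 27.0 at the others. These medians take in intervals that passed through 1 group alone, where an empty group both makes the call and lowers the density. Of the 28 calls of the first 4 Mb, 13 passed in both groups.

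By width, among intervals that passed in both groups, wide ones gave 11 calls of 58 in the first 4 Mb, narrow ones 2 of 18, and those of over 1 to 5 kb gave 0 of 17. In the rest of the chromosome, wide intervals gave 12 calls of 1104 and narrow intervals 10 of 858. On other chromosomes these counts were 179 of 20576 and 190 of 18076. Direction differed by width among all tested intervals of the rest. Its narrow calls were 8 lower and 2 higher, and its wide calls 4 lower and 9 higher. On other chromosomes, narrow calls were also mostly lower, with 152 lower and 58 higher. Wide calls were mostly lower there too, with 131 lower and 89 higher, unlike in the rest of chromosome 3. The median log2 fold change in the rest was -0.17 at narrow and 0.04 at wide intervals, beside -0.12 and 0.04 on other chromosomes. All 28 called intervals of the first 4 Mb together covered 907 kb, or 44.4% of the bases in its intervals, and those of the rest covered 505 kb, or 1.46%.

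**Figure D3:**
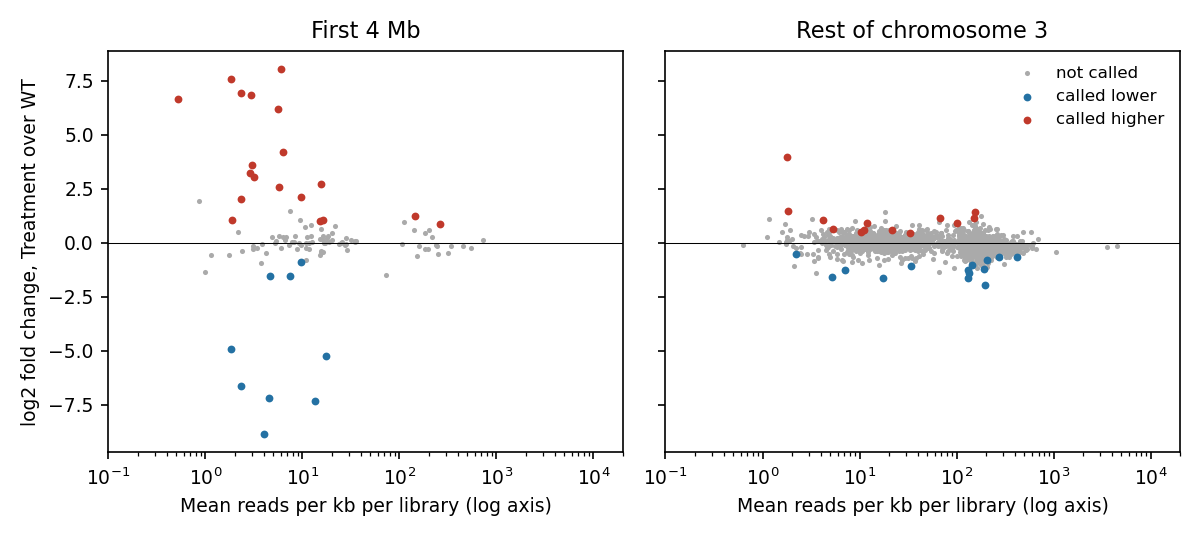
Log2 fold change (vertical axis) against mean reads per kb per library (horizontal log axis) of tested intervals in the first 4 Mb and in the rest of chromosome 3, with 1 point per interval. Called intervals of the first 4 Mb had a median density of 5.08 reads per kb and reach beyond 2 in both directions, whereas 1 interval of the rest did. The calls include intervals nearly empty in 1 group, which lowers their density.

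The size of change was uneven along the chromosome. In bins of 1 Mb, the first 4 bins held 6, 8, 7 and 7 calls, with median sizes of the log2 fold change of 0.82, 0.26, 4.93 and 0.29. The other 59 bins had medians from 0.05 to 0.30 and at most 4 calls each, and 42 of them had none. The third bin was the sparsest of all 63, with a median of 1.82 reads per kb, where the bins after the first 4 Mb ranged from 5.59 to 121. Its median size of change rests on 9 tested intervals, of which 7 were called. Several of the 9 passed the filter on low counts through 1 group alone, which favours a large change, and their nearly empty groups lower the density. The first 4 bins make up the segment that was chosen from these differences, so their sizes and calls are a description only.

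Set against the other 24 chromosomes, the start of chromosome 3 stood high but was not alone. It was chosen from these same differences, so its rank is a description and no evidence. The shares below also count intervals that passed the filter through 1 group alone. Among those that passed in both groups, 13 of 93 were called here and 5 of 78 in the first 4 Mb of chromosome 7. Of 349 windows of 4 Mb, 161 had no call, the median share called was 0.54%, and the first window of chromosome 3 ranked 2. By the median size of change it ranked 11. A window of chromosome 4 came before it with 16 of 64 intervals called (25%), and the windows ranked 3 to 8 also lay on chromosome 4. Over the first 4 Mb of the other 24 chromosomes, calls were made at 44 of 3533 tested intervals (1.25%), and 8 of these chromosomes had no call there. The highest of them was chromosome 7 with 12 of 89 (13.5%), followed by a chromosome with 3.97%.

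**Figure D4:**
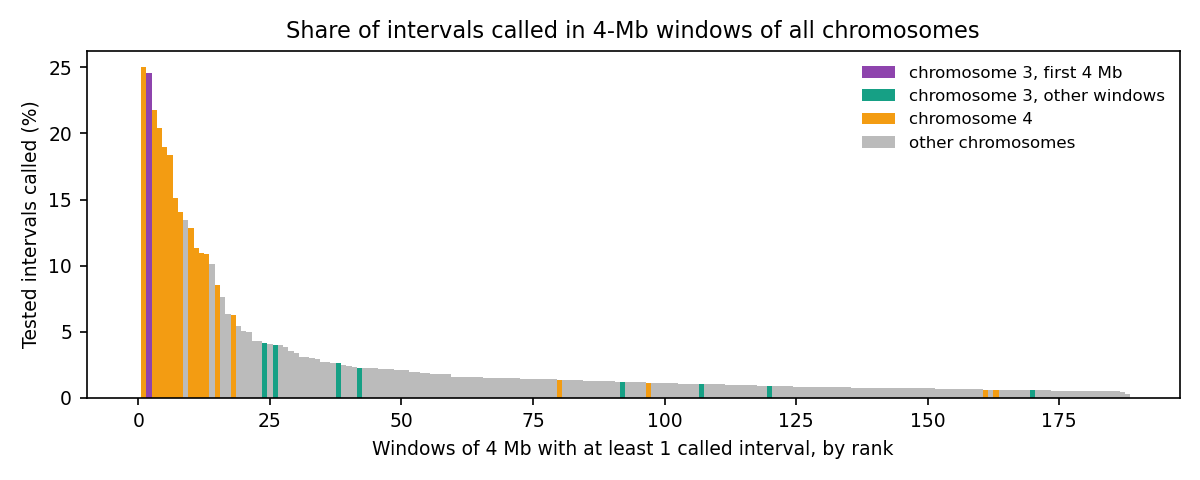
Share of tested intervals called (vertical axis, %) in windows of 4 Mb with at least 1 call, ordered by rank (horizontal axis), with 1 bar per window. The first window of chromosome 3, chosen from these same differences, ranked 2 with 24.6%, between windows of chromosome 4. The other windows of chromosome 3 lie lower in the order.

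Within the first 4 Mb the calls fell into stretches whose limits were set after their values were seen. The first 11 tested intervals, chr3:12977-454166, gave no call. Next came chr3:464127-1029876, with 2 lower and 5 higher calls among 11 tested intervals. The reads there were dominated by chr3:464127-800315, a sparse interval of 336 kb at 4.62 reads per kb. It held 2141 and 2526 reads in WT and 752 and 789 in Treatment, with both WT libraries far above both Treatment libraries. Its level was 141 ± 11.0 CPM (counts scaled to the size of the library) in WT and 49.4 ± 2.45 in Treatment (SD, n = 2 each), a log2 fold change of -1.52 (SE 0.07, edgeR adjusted p = 4.04e-19).

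Just beyond this lower interval, higher calls followed. At chr3:842733-854630, WT had 0 and 1 reads and Treatment 61 and 77. The groups did not overlap, and the ratio of Treatment to WT was 146, with a 95% counting interval of 25.7 to 5790, since it rests on 1 read in WT. The fitted log2 fold change was 6.86 (SE 0.68, edgeR adjusted p = 1.45e-09), and leaving out WT replicate 1 or 2 gave 6.05 and 9.12. The neighbouring intervals chr3:823084-829120, chr3:829121-829515 and chr3:866044-873695 were called higher with log2 fold changes of 1.05, 1.25 and 2.14.

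The next 490 kb, chr3:1030479-1520657, gave no call among 39 tested intervals. Its summed level was 407.5 and 419.5 CPM in WT and 440.7 and 408.6 in Treatment, with overlapping groups, and its median density was 19.9 reads per kb. It held the densest interval of the first 4 Mb, chr3:1058009-1059260, with 937 and 836 reads in WT and 882 and 983 in Treatment. The narrow site chr3:1106639-1107359 had 323 and 553 reads in WT and 346 and 352 in Treatment. The spread there lay mainly between the WT libraries, and the site was not called (log2 fold change -0.24, SE 0.14, edgeR adjusted p = 0.561). It was called lower without WT replicate 1 (-0.54, edgeR adjusted p = 0.0103), and without WT replicate 2 its log2 fold change was 0.16.

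Calls resumed in alternating directions before the long runs. At chr3:1554302-1682090, an interval of 128 kb, WT had 157 and 170 reads and Treatment 336 and 307, a log2 fold change of 1.06 (SE 0.16). Just after it, chr3:1689220-1714615 had 266 and 304 reads in WT and 80 and 106 in Treatment. The direction was the opposite, with a log2 fold change of -1.54 (SE 0.18, edgeR adjusted p = 1.23e-07), and in neither interval did the groups overlap. At chr3:1735214-1737590 the counts were low, with 4 reads in each WT library and 26 and 21 in Treatment, and the call was higher.

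From chr3:1862871 to 2335791, over 473 kb, reads were few in WT and more numerous in Treatment. The stretch held 12 intervals, of which 9 were tested and 9 called higher. Of these 9, 8 passed the filter through Treatment alone, which favours a difference. The counts of calls here and in the run are thus no evidence beyond the reads themselves. Their summed reads, with those of the 3 untested intervals, were 29 and 49 in WT and 552 and 621 in Treatment. In CPM these were 1.81 and 2.89 in WT and 37.5 and 37.5 in Treatment, a ratio of 16. Both Treatment libraries lay above both WT libraries in 11 of the 12 intervals, and the remaining one had no read in any library. Over all tested intervals, 41.2% had no overlap between the groups in either direction, and the limits of this stretch were picked after its values were seen.

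The fullest interval of this stretch was chr3:1930066-1970820, 40.8 kb long. WT had 2 and 1 reads and Treatment 158 and 221, a ratio of 133 with a counting interval of 45.3 to 649. WT was near 0 in both libraries, and the fitted log2 fold change was 6.93 (SE 0.43, edgeR adjusted p = 1.37e-15). At chr3:2083860-2091029, WT had 2 and 0 reads and Treatment 69 and 88, a ratio of 82.8 (counting interval 22.6 to 690). The fitted log2 fold change there was 6.20, with 5.25 without WT replicate 2 and 9.33 without WT replicate 1.

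In 3 intervals of this stretch WT had no read, and the change is given as a bound against a floor of 3 reads over the group. Treatment had 38 and 25 reads at chr3:2070039-2072630, at least 22.2-fold higher. It had 27 and 18 reads at chr3:2329708-2335791, at least 15.8-fold higher. The shallowest was chr3:1895523-1906976, with 12 reads in each Treatment library, at least 8.44-fold higher. Its edgeR adjusted p of 0.0106 was the largest of the run, and the call was lost with adjusted p-values of 0.0540 without WT replicate 1, 0.110 without WT replicate 2 and 0.121 by DESeq2.

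Not all of the stretch was empty in WT. At chr3:2013324-2033105, WT had 14 and 23 reads and Treatment 60 and 85, a log2 fold change of 2.04 (SE 0.36, edgeR adjusted p = 3.79e-04). At chr3:1862871-1875971, WT had 5 and 10 reads and Treatment 67 and 69, a log2 fold change of 3.24 (SE 0.43), and chr3:2200895-2209415 was similar with 4 and 8 reads against 47 and 48. The groups stood apart at each of these. At chr3:1880882-1888204 the WT libraries differed between themselves, with 1 and 6 reads, against 48 and 34 in Treatment, and the log2 fold change of 3.6 became 5.24 without WT replicate 2 and 2.88 without WT replicate 1.

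After 2 intervals that were not called, with log2 fold changes of -0.58 and -0.57, the direction turned. From chr3:2669813 to 3139974, over 470 kb, Treatment had few reads, and the 6 tested of 9 intervals were called lower. Of these 6, 5 passed the filter through WT alone. The reads in the 9 intervals summed to 966 and 990 in WT and 30 and 16 in Treatment. The summed level was 60.2 and 58.4 CPM in WT and 2.04 and 0.967 in Treatment, 39.5-fold lower. Both WT libraries lay above both Treatment libraries in 9 of 9 intervals. The groups did not overlap, in either direction, at 41.2% of all tested intervals. The limits of the stretch were picked after these values were seen, so the count is no evidence beyond the reads.

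Most reads of this stretch came from chr3:2719243-2894449, an interval of 175 kb at 1.82 reads per kb. WT had 606 and 629 reads and Treatment 26 and 12. The WT libraries were nearly alike at 37.4 ± 0.47 CPM, and Treatment lay at 1.25 ± 0.74 (SD, n = 2 each). The log2 fold change of -4.93 (SE 0.21, edgeR adjusted p = 4.72e-21) was the one with the smallest p on the chromosome, and it was -5.68 without Treatment replicate 1.

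Other intervals of the stretch, of at most 17.6 reads per kb, went the same way. At chr3:3016408-3019979, with 17.6 reads per kb, WT had 112 and 134 reads and Treatment 2 and 4, a log2 fold change of -5.22 (SE 0.44, edgeR adjusted p = 1.10e-11). At chr3:3046909-3072467, with 2.31 reads per kb, WT had 125 and 109 reads and Treatment 2 and 0, which made WT 111 times as high (counting interval 30.4 to 921). The fitted log2 fold change of the latter was -6.63, with -9.88 without Treatment replicate 1 and -5.63 without Treatment replicate 2, so that its size but not its direction turned on 2 reads.

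No read was found in either Treatment library at the other 3 called intervals of this stretch. At chr3:2971852-2979129, WT had 63 and 55 reads, and Treatment was at least 37.3-fold lower. At chr3:3113543-3115574, WT had 17 and 20 reads, at least 11.7-fold above Treatment. The narrow interval chr3:3139240-3139974, of 735 bp, had 22 and 18 reads in WT, at least 12.6-fold above Treatment.

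**Figure D5:**
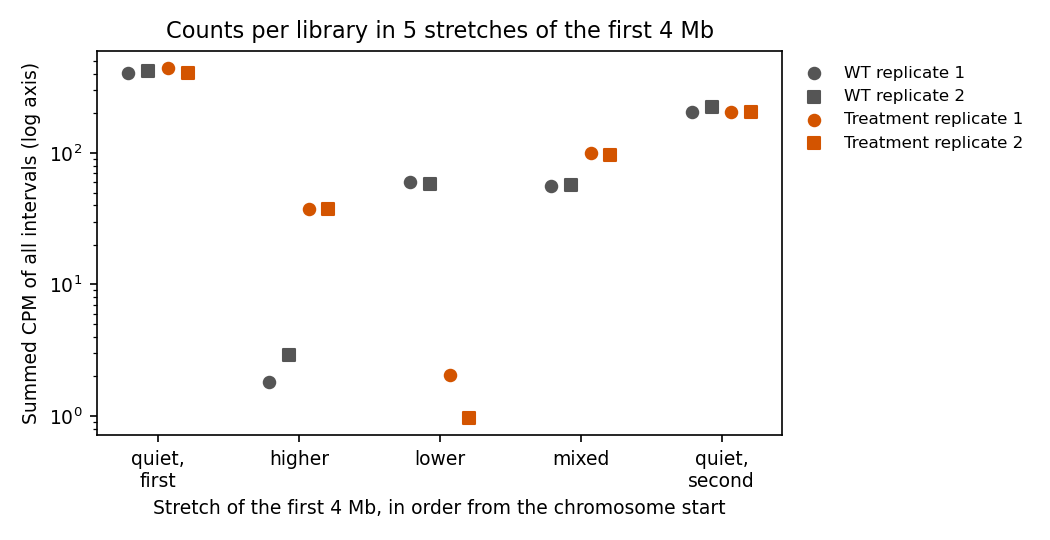
Summed CPM of all intervals (vertical log axis) in 5 stretches of the first 4 Mb of chromosome 3 in order along the chromosome (horizontal axis), with 1 point per library. The 4 libraries lie together in the stretches without a call, whereas the groups are 16-fold apart in the higher stretch and 39.5-fold apart, the other way, in the lower stretch.

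Intervals that were nearly empty in one group occurred in the first 4 Mb and not in the rest of the chromosome. An interval was counted as nearly empty where a group summed to 3 reads or fewer and both libraries of the other held 15 or more. By this definition it passed the filter on low counts only through the group where it is high. The segment was also chosen from such differences, so the counts are no evidence beyond the reads themselves. Over all chromosomes there were 37 among 50494 tested intervals. There were 9 among the 114 tested intervals of the first 4 Mb, 5 of them nearly empty in WT and 4 in Treatment. The low groups of these 9 held 8 reads in all against 1211 in the high groups. The rest of chromosome 3 had 0 such intervals, and the other chromosomes had 28 among 48052 tested intervals. Of these 28, 5 lay in the first 4 Mb of chromosome 7, all of them low in WT.

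The last called intervals of the first 4 Mb were higher in Treatment. At chr3:3281734-3297913, WT had 11 reads in each library and Treatment 185 and 203, a log2 fold change of 4.20 (SE 0.30, edgeR adjusted p = 8.27e-14). At chr3:3432960-3448095, WT had 58 and 70 reads and Treatment 379 and 426, a log2 fold change of 2.73 (SE 0.18, edgeR adjusted p = 3.23e-15), with 25.7 ± 0.03 CPM in Treatment and 3.87 ± 0.36 in WT (SD, n = 2 each). Between them, chr3:3386221-3398383 was also called higher, with 117 and 138 reads in WT and 243 and 244 in Treatment. The interval chr3:3335167-3372050 overlapped between groups, with 310 and 294 reads in WT and 282 and 308 in Treatment. The narrow interval after it, chr3:3372051-3372427, had 46 and 42 reads in WT and 68 and 59 in Treatment and was not called, although the groups did not overlap.

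The remaining part of the first 4 Mb, chr3:3454610-4007814, gave no call among 21 tested intervals, with 206.4 and 222.9 CPM in WT and 205.9 and 205.5 in Treatment. Its densest narrow site, chr3:3810417-3810836, had 170 and 242 reads in WT and 177 and 171 in Treatment. The last interval inside the 4-Mb limit, chr3:3992590-4007814, had 86 and 68 reads in WT and 44 and 61 in Treatment, a log2 fold change of -0.48. The first one outside it, chr3:4047789-4214905, had 461 and 435 reads in WT and 290 and 304 in Treatment, a log2 fold change of -0.51, and it was called lower. The 4-Mb limit thus falls between intervals that changed in the same direction and by a similar size.

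Runs of neighbouring calls in one direction were longer in the first 4 Mb. Counting tested intervals only, it had 4 such runs with 19 members, the longest being the run of 9 higher and the run of 6 lower intervals. The rest of the chromosome had 3 runs with 8 members, the longest being 4 lower intervals. The segment was chosen from these differences, and many calls close together make long runs. In the run of 9, 8 members passed the filter through Treatment alone, and in the run of 6, 5 passed through WT alone. The run lengths are thus no evidence beyond the reads themselves. Of the first 4 Mb, 12 members were not tested, since too few reads lay in them. Of these, 5 had no read in any library and 7 had at most 24 reads in a library. Of the 114 that were tested, 21 did not pass the filter on low counts in both groups. Entry through 1 group alone favours a difference but does not force one. At chr3:146153-147368, for example, WT had 0 and 10 reads and Treatment 15 and 11, and it was not called. Among the 93 that passed in both groups, 13 were called (14%), beside 26 of 2285 in the rest (1.14%) and 0.999% of all intervals.

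In the rest of the chromosome the called changes were smaller, with a median size of 1.09 on the log2 scale, beside 3.42 in the first 4 Mb. The latter was 3.16 when the 6 intervals with a group at 0 were set to their bounds. Of the calls, 13 of 28 in the first 4 Mb passed the filter on low counts in both groups, beside 26 of 27 in the rest. Passing through 1 group favours large changes, so the 2 medians are not on equal terms. The largest change in the rest was that of chr3:9542168-9571309, a sparse interval at 1.80 reads per kb. WT had 8 and 5 reads and Treatment 97 and 100, a log2 fold change of 3.97 (SE 0.40, edgeR adjusted p = 1.77e-09). It was the 1 tested interval of the rest with a change of at least 2.

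The longest run of the rest, unlike those of the first 4 Mb, lay in dense sites. It spanned 7.57 kb, chr3:32858719-32866287, in 4 adjoining or close intervals of 34 to 195 reads per kb. Their summed level was 39.5 and 40.5 CPM in WT and 14.8 and 11.9 in Treatment, 3.0-fold lower. The first of them, chr3:32858719-32859678, had 281 and 321 reads in WT and 87 and 61 in Treatment, a log2 fold change of -1.94 (SE 0.20, edgeR adjusted p = 2.47e-09). The summed levels on either side overlapped between groups, with ratios of Treatment to WT of 0.978 before and 0.982 after. Directly after the run, chr3:32866288-32870055 was lower in both Treatment libraries than in both WT libraries (log2 fold change -0.42, SE 0.29) and was not called. The call of chr3:32863322-32865781, the sparsest of the 4, was lost without WT replicate 1 (adjusted p = 0.0864), without Treatment replicate 1 (0.0822) and without Treatment replicate 2 (0.117).

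A wider group of lower intervals lay at chr3:7904390-8035737. All 8 of its tested intervals had a log2 fold change below 0, from -1.62 to -0.73, and 3 were called. The limits of this group were picked after its values were seen, so the shared direction is no evidence beyond the reads themselves. The summed level was 47.3 and 44.3 CPM in WT and 22.0 and 21.9 in Treatment, 2.08-fold lower. Its most changed interval, chr3:7943202-7948799, had 152 and 148 reads in WT and 48 and 44 in Treatment. The call of chr3:7987111-7997887, with 96 and 74 reads against 31 and 23, was lost without WT replicate 1 (adjusted p = 0.0543) and without Treatment replicate 2 (0.130).

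Groups of higher intervals lay toward the far end of the chromosome. At chr3:56705273-56813923, 7 of 7 tested intervals had a log2 fold change above 0 and 4 were called, and the summed level was 81.1 and 73.0 CPM in WT and 113 and 125.5 in Treatment, a ratio of 1.55. At chr3:58654063-58682591, 4 of 4 were above 0 and 2 were called, with 17.0 and 18.8 CPM in WT and 36.2 and 34.3 in Treatment, a ratio of 1.97. In both places the summed levels of WT and Treatment did not overlap. The limits of both places were picked after their values were seen. The shared direction and the lack of overlap are thus no evidence beyond the reads themselves. Of all single tested intervals, 41.2% had no overlap in either direction. The call of chr3:58682271-58682591, with 23 and 33 reads against 72 and 72, was lost without WT replicate 1 (adjusted p = 0.0692) and without Treatment replicate 1 (0.0898). Without Treatment replicate 2 the higher calls of chr3:5366371-5394800 and chr3:14157090-14189022 were lost as well (adjusted p = 0.102 and 0.0818).

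The densest narrow sites of the rest were not called with all 4 libraries. The narrow sites with the most reads per kb, chr3:59199016-59199526 and chr3:6424618-6425173, had log2 fold changes of -0.13 (SE 0.06) and -0.19 (SE 0.08). The latter was called lower without WT replicate 1 (-0.34, edgeR adjusted p = 4.82e-04). At the former, chr3:59199016-59199526, there were 2372 and 2606 reads in WT and 2110 and 2176 in Treatment. With factors from intervals of at most 1 kb, the log2 fold changes of these 2 sites became -0.02 and -0.07. A called change at a dense site was that of chr3:23488239-23489811, at 417 reads per kb, with 719 and 927 reads in WT and 479 and 499 in Treatment. It fell by 0.67 on the log2 scale (SE 0.10, edgeR adjusted p = 3.13e-05), and both WT libraries lay above both Treatment libraries, although the WT libraries differed between themselves by more than the Treatment libraries did.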

How the data were processed

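Bulk ATAC-seq libraries were made from nonCMs with an Active Motif kit. Per the study's methods, the authors used Trim Galore for trimming and Bowtie2 for alignment to GRCz11, discarded mitochondrial and multiply mapped reads, and called peaks with Genrich (q = 0.05) per condition over both replicates. The submitters' processing notes also name FastQC and danRer11. The joining of peak sets, the counter, duplicate removal and any Tn5 shift are not given in the sources used here. The authors deposited raw counts per interval with 1 column per library, and 0 columns were not used. Coordinates are on GRCz11, with 1 added to each deposited start so that the first base is 1.

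Counts of all intervals were filtered with filterByExpr (minimum count 10), scaled by TMM (a trimmed mean of log ratios) and fitted on group alone with glmQLFit and glmQLFTest (edgeR 4.0.16, R 4.3.3). The SE of a log2 fold change is its absolute value over the root of F. Level ± SD is in CPM of the scaled library, and replicate differences are in log2 CPM with a prior count of 2. Members, lists and tests were chosen with earlier results of these data known. Named intervals are, in the first 4 Mb and in the rest, the 6 calls per direction with the smallest adjusted p, intervals near 0 in 1 group, members of runs of at least 3 calls, and the 2 densest narrow sites; the other intervals, and the limits of stretches and groups of intervals, were picked after their values were seen. Ratios with few reads carry an exact 95% counting interval. Alternatives were DESeq2 size factors, total count scaling, TMM factors from narrow intervals or from outside chromosome 3, no filter or a mean of 50 counts, the DESeq2 1.42.0 Wald test (the tool the study names), limma 3.58.1 with voom, a replicate block, each library left out in turn, and segment ends of 3 and 5 Mb. Planned looks at marker genes and at gene starts were not made, since no gene positions of GRCz11 were used here.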

Additional observations from a re-analysis of the deposited data

How the results depend on the processing

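Of 417 repeats over the 33 called of 37 named intervals, 0 reversed a call and 16 lost one, at 6 intervals, 11 of them with a library left out. Of 52 repeats over the 4 named intervals that were not called, 2 gained a call, both without WT replicate 1. A named interval that the filter of a mean of 50 counts removed is counted neither among the 417 repeats nor as lost. This filter left 15 calls in the first 4 Mb, beside 28. Of the run of 9 higher calls it kept chr3:1930066-1970820 alone. On chromosome 3, the DESeq2 Wald test gave 13 lower and 18 higher calls, beside 23 and 32. In the first 4 Mb, a mean of at least 50 counts gave 9 higher calls instead of 19, and ending at 3 Mb gave 5 lower calls instead of 9. The median log2 fold change there (0.04) became 0.15 with TMM factors from narrow intervals, -0.0071 with a mean of at least 50 counts and 0.12 when ending at 3 Mb. The median size (0.34) became 0.38 with those factors, 0.42 with no filter and 0.26 with a mean of at least 50 counts. With each library left out in turn, chromosome 3 gave 15 to 31 lower and 20 to 31 higher calls, and the first 4 Mb had a median of -0.0061 to 0.074 and a median size of 0.36 to 0.46. With the replicate block, chromosome 3 gave 60 calls, among them all 55 made without it. Over all intervals the block gave 704 calls, beside 585. Same-numbered libraries deviated with r = -0.06 across intervals, so no shared deviation was seen, but this cannot show if they were prepared together. The cause of these shifts was not tested. At low counts, sizes rest on single reads.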
